A study of Homo sapiens with 2 samples.

Results

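The genes RNF43, ZNRF3, LGR4, LGR5, LGR6, KREMEN1, KREMEN2, LRP5, LRP6 and NOTUM control how much Wnt receptor a cell carries, or work beside that receptor. These 10 genes were chosen by name, and all 10 were found among 19866 protein-coding gene records of RefSeq on GRCh38. For each record, peak summits were taken inside it, within 1 kb of either of its ends, and within 50 kb of it. The 26642 deposited peaks gave 49 summits of this kind. The peaks are on the build hg38, and all coordinates below are on it. The study recovered DNA with a TCF4 antibody from CAL-27 sphere cells in 1 library and with an IgG antibody in 1 library. Both libraries come from CAL-27 alone, a cell line established from a squamous cell carcinoma of the human tongue. Spheres are clusters grown in suspension, a culture often used to enrich stem-like tumour cells. The IgG library was not analysed here, so peaks that any antibody would give were not set apart here from the rest. Whether the authors called the peaks against IgG is not known. With 1 library in each group, no value has a replicate check and no comparison between groups of genes or antibodies was tested. The −log10 q of a peak is the authors' peak caller's own. The name TCF4 stands for both an E protein, which binds E-box sequences, and TCF7L2, a partner of beta-catenin, and the labels do not say which of these the antibody recognises.

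RNF43 and ZNRF3 are membrane ubiquitin ligases that mark Frizzled receptors for removal from the cell surface. LGR4, LGR5 and LGR6 bind R-spondins, and the bound complex takes these ligases off the surface, so that more Frizzled remains. LRP5 and LRP6 are the co-receptors that hold Wnt together with Frizzled. KREMEN1 and KREMEN2 bind the secreted inhibitor Dickkopf, which acts on LRP5 and LRP6. NOTUM is a secreted enzyme that removes the lipid group that Wnt proteins need. RNF43, ZNRF3, LGR5 and NOTUM are known from the intestine and its tumours as genes that Wnt signalling switches on.

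Peak summits lay at an end of 7 of the 10 genes: RNF43, ZNRF3, LGR4, KREMEN1, KREMEN2, LRP5 and NOTUM. The background share was 41.5% of all protein-coding records with a summit within 1 kb of either end. LGR6 had summits only farther inside or outside the gene. No summit at all, inside or within 50 kb, was found for 2 of the 10 genes, LGR5 and LRP6, close to the 22.4% of all protein-coding records without one. The 10 genes differ in length, from 4106 bp (KREMEN2) to 173917 bp (ZNRF3), and a longer record can hold more summits. Of the 8 genes with records of 60 to 180 kb, 5 had a summit at an end, against 45.7% of the 3759 protein-coding records in that range. Both short genes, KREMEN2 and NOTUM, had a summit at an end, against 33.9% of records under 10 kb. A summit inside was found in 3 of the 8 longer genes, against 54.2% of records of 60 to 180 kb.

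**Figure D1:**
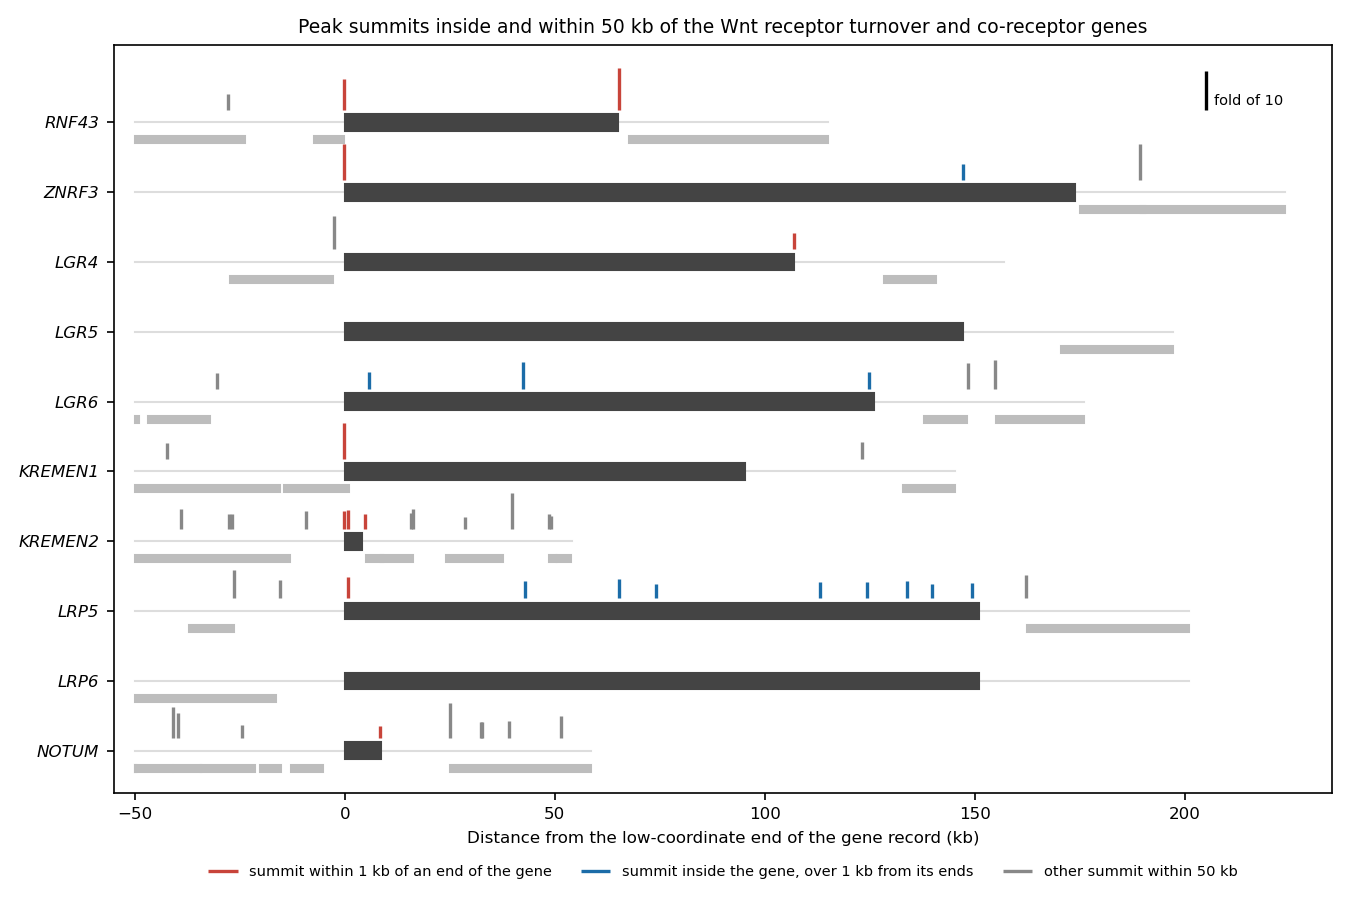
Peak summits in and around the 10 genes, by distance in kb from the low-coordinate end of each gene record. Dark bars are the records, light bars below them are neighbouring protein-coding records, and the height of each vertical line is the authors' fold enrichment, with a scale line for a fold of 10. RNF43 has a summit at both ends, LRP5 has 9 inside, and the LGR5 and LRP6 rows hold none.

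The height of a peak is given here in several ways. The fold is the authors' fold enrichment of the fragments at the summit over the peak caller's local background. The number of fragments at the summit and that background were recovered from the deposited fold and p. The median over all peaks was a fold of 5.13 on 10 fragments, with quartiles of 7 and 15 fragments. Intervals on fragments are exact Poisson 95% intervals and cover counting error only. The 10 summits at ends of the 10 genes had folds of 3.09 to 10.7 with a median of 5.14, below the median of 5.81 over all summits at protein-coding ends. They rested on 7 to 35 fragments with a median of 17, against a median of 12 over all such summits. KREMEN2 alone gave 3 of the 10, with folds of 3.85 to 4.70 on 27 to 35 fragments, and RNF43 gave 2. Both medians are thus over summits and not over genes, and they lean on the low folds and many fragments of KREMEN2. Among markers of the labelled cell type, 9 of 10 squamous and epithelial genes had a summit at an end. TP63 was without one but had 2 summits inside. In fibroblast and lymphocyte markers the count was 1 of 8 each, and in endothelial markers 1 of 6. The share over all protein-coding records was 41.5%. Peaks at these genes do not measure their expression.

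**Figure D2:**
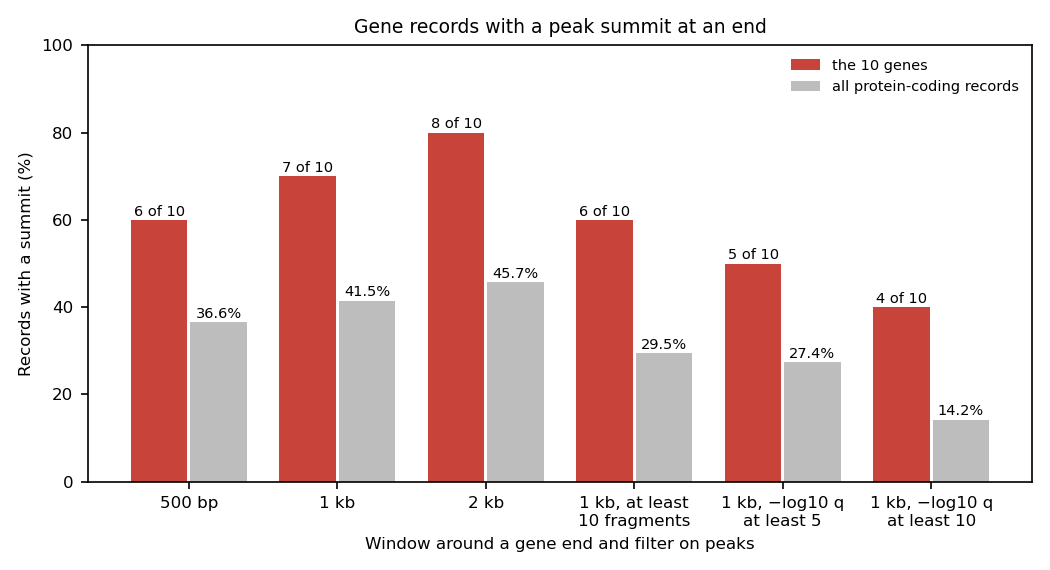
Share of gene records with a peak summit at an end, for the 10 genes and for all protein-coding records, under windows of 500 bp, 1 kb and 2 kb and with filters on peaks. With 1 kb, 7 of the 10 genes have a summit against 41.5% of all records, and with a −log10 q of at least 10 there are 4 against 14.2%.

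The ubiquitin ligase genes RNF43 and ZNRF3 had folds of 10.7 and 9.27 at an end, which with that of KREMEN1 were the highest of the 10 genes. RNF43, on chromosome 17 from 58352500 to 58417534, runs on the minus strand, so its start is at the high-coordinate end. A peak from 58417540 to 58417830 reached a fold of 10.7, with 15 fragments at its summit (interval 8.40 to 24.7) and a −log10 q of 14.3. This fold is higher than those of 95.7% of all peaks. Its summit lay 213 bp before the listed start, outside the gene, and the next protein-coding end, that of HSF5, was 2420 bp away. The local background was 0.491 fragments, close to the floor of 0.475 over the whole list, so that a moderate number of fragments gave this fold. The other listed start of RNF43, 14813 bp further into the gene, had no summit within 15 kb.

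At the opposite end of RNF43 a peak from 58352219 to 58352469 reached a fold of 7.96 on 14 fragments (7.65 to 23.5). Its summit lay 129 bp from the end of RNF43 and 170 bp from the start of SUPT4H1, which codes for a transcription elongation factor. These records are 299 bp apart, so the peak stands at the start of SUPT4H1 as much as at the finish of RNF43. It also lies inside the record of TSPOAP1-AS1, a long non-coding RNA. A summit at both ends was found in 2 of the 10 genes, RNF43 and KREMEN2, against 2.75% of protein-coding records. In both genes 1 of these summits lay close to a neighbour's start, that of SUPT4H1 or PAQR4.

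The sequences at both RNF43 ends are shown because the peaks there lie just before listed starts of different genes. They are RefSeq windows on GRCh38.p14 in the direction of the gene, from 250 bases before the start to 50 after it. Capitals mark the 21 bases centred on the peak summit. The RNF43 window is chr17:58417485-58417784 on the minus strand, and the SUPT4H1 window is chr17:58352152-58352451 on the minus strand.
RNF43: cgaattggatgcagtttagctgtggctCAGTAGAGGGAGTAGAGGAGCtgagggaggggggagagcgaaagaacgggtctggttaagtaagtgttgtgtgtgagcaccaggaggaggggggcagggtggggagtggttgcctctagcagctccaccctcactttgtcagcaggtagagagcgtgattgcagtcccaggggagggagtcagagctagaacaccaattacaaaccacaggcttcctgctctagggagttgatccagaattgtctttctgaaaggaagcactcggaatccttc
SUPT4H1: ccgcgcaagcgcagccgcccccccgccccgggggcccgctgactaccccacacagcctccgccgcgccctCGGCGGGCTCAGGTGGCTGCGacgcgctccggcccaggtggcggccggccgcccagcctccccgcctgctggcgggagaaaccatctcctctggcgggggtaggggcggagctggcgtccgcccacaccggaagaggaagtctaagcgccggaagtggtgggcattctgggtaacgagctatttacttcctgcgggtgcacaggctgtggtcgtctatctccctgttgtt

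The RNF43 window covers 245 of the 291 bp of its peak, and the SUPT4H1 window covers 233 of 251 bp. Bases of the peaks outside the windows were not read. The RNF43 window held no E-box (CANNTG) and no TCF/LEF word (CTTTGA or CTTTGTT) on either strand. The SUPT4H1 window held CAGGTG at 2 places, centred 1.5 and 26.5 bp from the summit, and no TCF/LEF word. CAGGTG is the reverse strand of CACCTG, a form of the E-box. Of the 22199 windows of protein-coding genes, 65.1% held CANNTG, 19.9% held CACCTG on either strand, 10.9% held CTTTGA and 4.3% held CTTTGTT. Among the 5235 of them with a summit inside, these shares were 57.3%, 18.5%, 6.61% and 2.52%. Among the 15216 with no peak overlap they were 68.8%, 20.7%, 12.8% and 5.12%. GC content was 54.3% in the RNF43 window and 71.3% in the SUPT4H1 window. Among windows of protein-coding genes divided into 5 classes by GC, a summit inside was found in 14.5% of the class of RNF43 and 38.8% of the class of SUPT4H1.

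ZNRF3, on chromosome 22 from 28883572 to 29057488, had a peak from 28883211 to 28883585 that reached a fold of 9.27 on 19 fragments (11.4 to 29.7). The summit lay 225 bp outside the low-coordinate end. No other protein-coding end lay within 82 kb of it. A second ZNRF3 summit, inside the gene, had a fold of 4.02 on 6 fragments (2.20 to 13.1). It lay 703 bp from the listed start of ZNRF3-AS1, an antisense RNA whose record sits within ZNRF3. The fragment intervals of the ZNRF3 and RNF43 peaks at the outer ends overlap. A difference in height between them was not tested, and no interval was made for the folds.

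The Kremen receptor genes differed in the kind of peak they carried. KREMEN1, on chromosome 22 from 29073035 to 29168333, lies near ZNRF3, and 15547 bp separate their records. Between them, the record of C22orf31 begins 1184 bp after ZNRF3 and runs into that of KREMEN1. Its peak, from 29072819 to 29072999, reached a fold of 9.27 on 21 fragments (13.0 to 32.1), with the summit 116 bp outside the low-coordinate end. The summit also lies inside the record of C22orf31, 1024 bp from an end of that gene. The ZNRF3 and KREMEN1 peaks are separate, although their folds are equal to 3 digits. Because ZNRF3 and KREMEN1 lie close together, the internal ZNRF3 summit and the KREMEN1 summit each fall within 50 kb of both genes. No summit lay inside KREMEN1.

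KREMEN2, on chromosome 16 from 2964275 to 2968380, had 3 summits at its ends, all with low folds on many fragments. The peak from 2964028 to 2964224 reached a fold of 4.63 on 31 fragments (21.1 to 44.0), with its summit 178 bp outside the low-coordinate end. The peak from 2964858 to 2965166 reached a fold of 4.70 on 35 fragments (24.4 to 48.7), with its summit 807 bp inside that end. The peak from 2968831 to 2969242 reached a fold of 3.85 on 27 fragments (17.8 to 39.3). By fragments the peak inside the gene is higher than 95.3% of all peaks, yet by fold it is higher than only 36.6%. The local background was 5.91, 6.65 and 6.27 fragments at these 3 summits, each above that of 97% of peaks. The order of the genes therefore depends on the scale: RNF43 leads by fold and KREMEN2 by fragments.

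**Figure D3:**
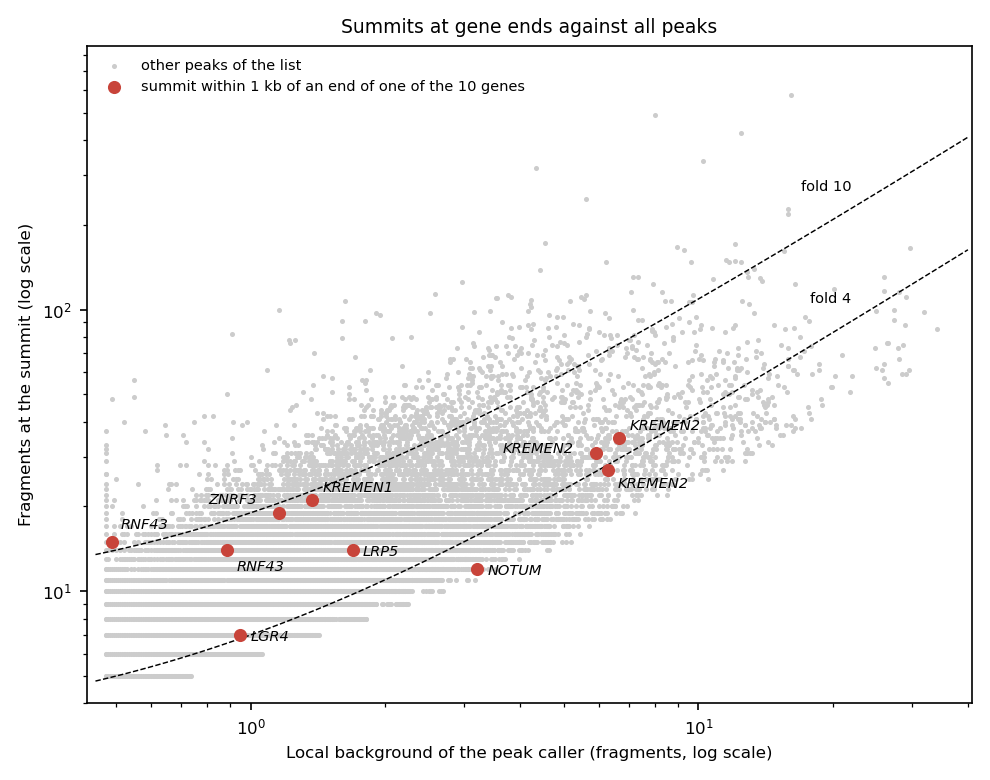
Fragments at the summit against the peak caller's local background, both on log scales, for all 26642 peaks and for the 10 summits at ends of the 10 genes. The dashed lines join points of equal fold. RNF43 (15 fragments) sits at the low end of the background and KREMEN2 (27 to 35 fragments) near the high end.

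The summit at the high-coordinate end of KREMEN2 lay 786 bp outside that gene and 182 bp before the start of PAQR4, a membrane receptor family member. It is the only summit of the 10 at ends of the 10 genes that was nearer to an end of another protein-coding gene. Near SUPT4H1, RNF43 had the closer end by a small margin. Ends of 2 or more protein-coding records lay within 1 kb of these 2 summits, and of 18.2% of all summits at protein-coding ends. When such summits were left out, the same 7 genes kept a summit at an end, against 29.5% of all records. The PAQR4 window, chr16:2969098-2969397 on the plus strand, is shown with the 21 bases around this summit in capitals. It held 1 E-box, CAAATG, centred 26.5 bp from the summit, and no TCF/LEF word. This window covers only 145 of the 412 bp of the peak, and the rest of the peak was not read.
PAQR4: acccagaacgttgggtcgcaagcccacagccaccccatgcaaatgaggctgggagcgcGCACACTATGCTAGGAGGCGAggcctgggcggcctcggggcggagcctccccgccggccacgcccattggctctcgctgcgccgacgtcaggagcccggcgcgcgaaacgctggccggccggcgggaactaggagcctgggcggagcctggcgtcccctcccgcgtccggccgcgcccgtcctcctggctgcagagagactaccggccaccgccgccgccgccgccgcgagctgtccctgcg

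The R-spondin receptor genes LGR4, LGR5 and LGR6 had a weak summit at the start, no summit in reach, and internal summits. LGR4, on chromosome 11 from 27365961 to 27472790 on the minus strand, had a peak from 27472712 to 27472901 that reached a fold of 4.11 on 7 fragments (2.81 to 14.4). Its summit lay 79 bp before the listed start, the closest of all 10 to an end. The −log10 q was 2.22, and only 17.9% of peaks had a lower fold. A higher peak near LGR4, with a fold of 8.69 on 14 fragments (7.65 to 23.5), lay 2618 bp beyond the other end. That summit is 128 bp from the start of CCDC34.

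The LGR4 window is chr11:27472741-27473040 on the minus strand, and it is shown because the summit falls within the window, close to the start. It held no E-box and no TCF/LEF word, and its GC content was 61.3%, in a class of which 28.6% of windows held a summit. The window covers 161 of the 190 bp of the peak, and the rest of the peak was not read.
LGR4: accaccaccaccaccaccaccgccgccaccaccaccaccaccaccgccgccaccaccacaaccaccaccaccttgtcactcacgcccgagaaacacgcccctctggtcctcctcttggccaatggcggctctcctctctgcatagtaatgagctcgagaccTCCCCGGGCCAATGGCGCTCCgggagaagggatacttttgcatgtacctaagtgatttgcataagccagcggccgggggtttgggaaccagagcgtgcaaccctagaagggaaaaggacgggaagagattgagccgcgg

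LGR5, on chromosome 12 from 71439129 to 71586310, lies in a long stretch without summits. The last summit before it was 654701 bp away and the next after it 76777 bp away, so 878.7 kb separate the flanking summits. Of the records of 60 to 180 kb, 11.6% lie in a summit-free stretch at least as long. The summit after LGR5 lies 761 bp from an end of ZFC3H1. Peaks alone are listed, so the number of fragments along LGR5 is unknown.

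LGR6, on chromosome 1 from 202193799 to 202319761 on the plus strand, had 3 summits inside the gene and none within 1 kb of its ends. Folds were 4.44 on 8 fragments (3.45 to 15.8), 7.08 on 19 (11.4 to 29.7) and 4.35 on 7 (2.81 to 14.4). None of its 3 listed starts had a summit within 4 kb. The strongest, with a peak of 483 bp from 202236012 to 202236494, lies 202 bp before a listed start of LOC101929388, a long non-coding RNA on the opposite strand within LGR6. The summit near the high-coordinate end lay 1202 bp from it, just outside the window of 1 kb, and enters with a window of 2 kb. Outside the gene, folds of 6.78 and 7.42 marked the starts of UBE2T and PPP1R12B.

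The LOC101929388 window, chr1:202236027-202236326 on the minus strand, is shown because the strongest LGR6 peak covers all 300 bases of it. It held no E-box and no TCF/LEF word. The rest of this peak of 483 bp was not read.
LOC101929388: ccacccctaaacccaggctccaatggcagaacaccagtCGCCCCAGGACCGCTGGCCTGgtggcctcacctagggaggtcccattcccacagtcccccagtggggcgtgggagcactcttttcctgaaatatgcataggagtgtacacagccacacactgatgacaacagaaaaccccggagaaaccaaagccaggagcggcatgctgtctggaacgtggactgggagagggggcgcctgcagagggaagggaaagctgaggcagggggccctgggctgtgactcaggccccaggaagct

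The co-receptor genes LRP5 and LRP6 have records of nearly equal length, 150864 and 151020 bp, and differed in their number of summits. LRP5, on chromosome 11 from 68298412 to 68449275 on the plus strand, had 9 summits inside the gene. LRP6, on chromosome 12 from 12116025 to 12267044, had none inside and none within 50 kb. Of the records of 60 to 180 kb, 0.505% had 9 or more summits inside, and 19.6% had none inside or within 50 kb. The median in that range was 1 summit inside. The nearest summit to LRP6 was 89973 bp away, 61 bp from an end of BORCS5. The flanking summits were 478.6 kb apart, and 18.6% of records in the range lie in a stretch at least as long.

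The 9 LRP5 peaks had folds of 3.64 to 5.58, and 8 of them were below the median fold of all peaks. They rested on 10 to 14 fragments, at or above the median of 10 over all peaks, and were 104 to 276 bp wide. At a −log10 q of at least 5 only 1 remained, the peak from 68299087 to 68299233. It had a fold of 5.58 on 14 fragments (7.65 to 23.5), and its summit lay 732 bp inside the low-coordinate end. The spacing between neighbouring summits was 5.97 to 42.2 kb with a median of 10.4 kb. The local background along LRP5 was 1.52 to 2.30 fragments, above the median of 0.962 over all peaks. The part of this background in the number of summits was not tested.

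The LRP5 summit at an end is not at the listed start. The record begins 14179 bp before that start, and the summit lay 13447 bp before it. The listed start itself had no summit within 13 kb. Its window, chr11:68312341-68312640 on the plus strand, is shown because its GC content of 86.7% is higher than that of 99.9% of windows of protein-coding genes. In the class of highest GC, 35.7% of windows held a summit. The LRP5 window held no E-box and no TCF/LEF word.
LRP5: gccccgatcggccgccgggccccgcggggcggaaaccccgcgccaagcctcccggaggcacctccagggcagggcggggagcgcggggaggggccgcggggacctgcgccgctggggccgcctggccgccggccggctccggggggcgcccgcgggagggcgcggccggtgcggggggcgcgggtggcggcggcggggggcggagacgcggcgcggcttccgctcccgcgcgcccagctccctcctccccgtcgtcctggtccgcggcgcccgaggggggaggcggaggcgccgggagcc

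Of the 4 genes with a listed start, RNF43 and LGR4 had a summit within 1 kb of one, and LRP5 and LGR6 had none, against 44.4% of the 15843 protein-coding genes with a listed start. ZNRF3, LGR5, KREMEN1, KREMEN2, LRP6 and NOTUM have no entry in that table. Counted by promoter window, 2 of the 7 windows of these 4 genes held a summit, against 23.6% of all windows of protein-coding genes. The 2 windows with a summit, at RNF43 and LGR4, held no E-box. Among windows without a summit, that of the other RNF43 start held 4 E-boxes. The LGR6 windows held 1, 4 and 2, and the LRP5 window held none. None of the 7 held a TCF/LEF word. A relation between E-boxes and summits was not tested.

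**Figure D4:**
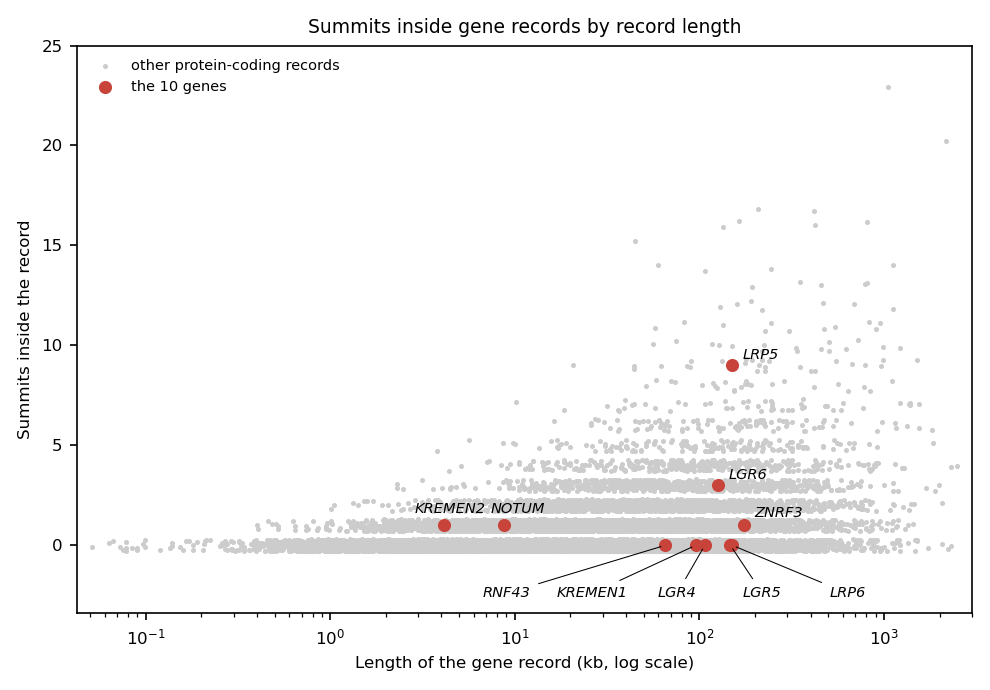
Number of summits inside each protein-coding gene record against its length in kb (log scale), with the 10 genes in red. The grey points are spread slightly up and down for visibility. LRP5 has 9 summits and LRP6, of nearly the same length, has 0.

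NOTUM, on chromosome 17 from 81952507 to 81961187, had the summit with the lowest fold at an end. Its peak, from 81960769 to 81960905, reached only a fold of 3.09 on 12 fragments (6.20 to 21.0) and a −log10 q of 1.76, close to the lowest value in the list, 1.30. The summit lay 391 bp inside the high-coordinate end. The local background was 3.20 fragments, higher than at 91.4% of peaks. NOTUM stands among stronger peaks at other genes. Within 50 kb lay a fold of 9.14 on 26 fragments (17.0 to 38.1), 137 bp from an end of ASPSCR1. The listed start of LOC105371939, a record that is not protein-coding, was closer to that summit, at 7 bp. Another peak within 50 kb had a fold of 8.09 on 55 fragments (41.4 to 71.6), 245 bp from an end of PCYT2.

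Inside the 10 records together lay 15 summits in 1028.9 kb, or 1.46 per 100 kb, against 1.09 per 100 kb over all protein-coding records. LRP5 alone held 9 of them, and without it the density was 0.683 per 100 kb. A summit inside was found in 5 of the 10 genes, ZNRF3, LGR6, KREMEN2, LRP5 and NOTUM, against 39% of all protein-coding records. In KREMEN2 and NOTUM that summit was also within 1 kb of an end. Of the 10 summits at ends, 7 lay outside the record, against 55% of all summits at protein-coding ends. Of the 49 summits within 50 kb, 14 lay within 1 kb of an end of a protein-coding gene outside the 10, including the SUPT4H1 and PAQR4 summits. KREMEN2 had the most within 50 kb, 13 summits, followed by 12 at LRP5 and 9 at NOTUM, although its record is the shortest.

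The other genes that act on or beside the Wnt receptor were read from 6 lists. A summit at an end was found in 20 of these 49 genes (40.8%), close to the background of 41.5%. Among R-spondins, the ligands of LGR4, LGR5 and LGR6, it was 1 of 4, RSPO4 with a fold of 5.25 on 11 fragments, while RSPO1 and RSPO2 had none. Among extracellular inhibitors of LRP5 and LRP6 it was 1 of 6, DKK4 with a fold of 4.75 on 6 fragments, while DKK1 and DKK2 had none. Of the 10 Frizzled receptor genes, the targets of RNF43 and ZNRF3, 3 had a summit at an end: FZD1 (fold 6.50), FZD6 (5.42) and FZD3 (4.07). Of the other co-receptors and chaperones, 3 of 7 had one: TMEM59 (fold 9.78), ROR1 (7.03) and PTK7 (4.04). Genes of Wnt secretion and modification had 1 of 4, the acyltransferase PORCN with a fold of 6.81, and WLS had none. Genes of receptor phosphorylation and endocytosis had 11 of 18. The highest folds in this list were 13.9 on 88 fragments at AXIN1 and 11.5 on 25 at CSNK1A1, followed by 10.4 on 43 at GSK3B and 7.71 on 12 at CSNK1G3, a kinase of the casein kinase 1 gamma family that phosphorylates LRP6. AMER1 and AXIN2 were among the 7 without a summit at an end.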

How the data were processed

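The labels place 1 library with a TCF4 antibody and 1 with an IgG antibody, and only the TCF4 peak list was analysed here. Per the submitters' processing notes, the tools were Bowtie2 2.3.5.1, SAMtools and MACS2 2.2.7.1 and the build hg38; settings are not stated there. No source used here says whether IgG served as the caller's control. The deposited fold is a ratio to the caller's local background. The authors' −log10 p and −log10 q belong to the summit, and their deposited score is a scaled whole number made from that −log10 q. All 26642 peaks were solved for fragments and background, within 0.0001 of the −log10 p, from fold = (fragments + 1) / (background + 1) and a Poisson tail. All 500 simulated peaks and all 200 simulated summits planted at gene ends were recovered. They were made with the same formula and window, so this checks the computation and not its assumptions.

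Genes came from a RefSeq table of GRCh38.p14 (58961 records on the main chromosomes, after 583 on patches and alternate loci were left out), without strand. Starts, strand and 300-base windows came from a RefSeq promoter table. A summit is the start of the peak plus its offset. Genes and lists were chosen with earlier results of these data known. Named were all 10 genes, some neighbours, and genes with an end within 1 kb of a summit at an end of the 10. From each list, up to 4 genes with and 2 without a summit at an end were named. Further neighbours and non-coding RNAs were named after their values were seen. With 1 library no likeness over samples could be measured. Depth in total is unknown. Alternatives were other windows, thresholds and assignments. Computation used pandas 2.3.3, SciPy 1.17.1 and NumPy 2.4.6 under Python 3.11.15, with figures from Matplotlib 3.10.9.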

Additional observations from a re-analysis of the deposited data

How the results depend on the processing

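Of 40 alternatives, 23 left a count or median within 1.5 times its value. The number of the 10 genes with a summit at an end was 6 with a window of 500 bp (36.6% of all records) and 8 with 2 kb (45.7%). It was 5 at a −log10 q of at least 5 (27.4%) and 6 with at least 10 fragments (29.5%). Under other assignment it stayed at 7 (29.5% to 42.2%). It was 4 at a −log10 q of at least 10 (14.2% of all records), without LGR4, LRP5 and NOTUM, and 2 with listed starts, which cover 4 of the genes. Of the 8 genes with records of 60 to 180 kb, 5 had one (45.7% of records in that range). The pathway count of 20 of 49 became 13 at a −log10 q of at least 5 (27.4% of all protein-coding records). It was 6 at 10 (14.2%) and 13 with at least 10 fragments (29.5%). With listed starts it was also 13, but how many of the 49 genes have a listed start is not given here. The share of 44.4% over protein-coding genes with a listed start is therefore not to be set against 49. Genes with a summit inside became 3 under the threshold of 5 (20% of all records), 2 under that of 10 (8.22%), and 3 without summits at ends (25.5%). At the same thresholds the density inside became 0.292 and 0.194 per 100 kb, against 0.413 and 0.147 over all protein-coding records. It was 0.683 without LRP5 (chosen after seeing the data, as was the length range). Summits near the genes numbered 29 within 20 kb, 87 within 100 kb, and 21 and 11 at the thresholds of 5 and 10. The median fold of their peaks, 4.54 against 5.13 over all peaks, became 7.08 against 6.87 at a −log10 q of at least 5. No paired analysis was possible because each antibody has 1 library and no result comes from a test. Few fragments per peak limit every height.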
